A study of Homo sapiens with 24 samples.

Results

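The GRO chemokines CXCL1, CXCL2 and CXCL3 and the related neutrophil chemokines CXCL5 and CXCL6 were followed through an RNA immunoprecipitation (IP) experiment in BEAS-2B, an immortalised human bronchial epithelial cell line. The 5 genes were taken by their symbols from a membrane array of autoimmune and inflammatory response genes, on which 384 transcripts were listed and 355 had values, so they were 5 of 355. The cells were given TNFα together with IFNγ, each at 50 ng/ml (TNF/IFN), or PBS (untreated), for 3 h or 18 h. Ribonucleoprotein complexes were then precipitated with a mouse monoclonal antibody against HuR, an RNA-binding protein, or with an IgG1 antibody as the isotype control, and the RNA that came down was copied into radiolabelled cDNA for the arrays. At 3 h the groups were HuR IP of TNF/IFN cells, HuR IP of untreated cells, IgG1 IP of TNF/IFN cells and IgG1 IP of untreated cells. The same 4 groups were made at 18 h, and each of the 8 groups had 3 arrays, numbered 1, 3 and 4 in the labels and called sets here; the series describes them as biological replicates. The question set by the design is which inflammatory transcripts associate with HuR, and whether the stimulus changes that association. RNA of the cells before precipitation was not analysed here. The antibody field names R&D for the stimulated HuR arrays and Santa Cruz Biotechnology for the untreated ones, while the protocol names 1 anti-HuR antibody, so a change of antibody source and the stimulus cannot be told apart from these labels.

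The CXC chemokines with an ELR motif, to which all 5 genes belong, bind the receptor CXCR2, some of them also CXCR1, and draw neutrophils into tissue. Airway epithelium is a known source of them in inflammation. TNFα switches such genes on through NF-κB, a transcription factor that binds κB sites in their promoters. The messages of several of them carry AU-rich elements that speed decay, and HuR is known for binding such elements and lengthening the life of the message.

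The 5 genes lie in 1 cluster on chromosome 4, in the order CXCL8, CXCL6, CXCL1, PF4, PPBP, CXCL5, CXCL3 and CXCL2 along the RefSeq assembly GRCh38.p14. The 120 bases before each start site are shown because all 5 genes hold the same κB-like word there, although they differed in how far the stimulus moved them. Sequences are from RefSeq, 5′ to 3′ along the gene, and the capitals mark the word GGAATTTCC.
CXCL1: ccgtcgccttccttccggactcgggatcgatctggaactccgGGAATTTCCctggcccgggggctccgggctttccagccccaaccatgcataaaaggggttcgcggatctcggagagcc
CXCL2: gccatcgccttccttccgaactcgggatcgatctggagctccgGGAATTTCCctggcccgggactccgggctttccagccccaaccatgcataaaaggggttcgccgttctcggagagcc
CXCL3: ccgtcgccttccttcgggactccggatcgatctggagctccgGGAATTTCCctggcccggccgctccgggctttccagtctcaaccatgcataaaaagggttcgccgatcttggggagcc
CXCL5: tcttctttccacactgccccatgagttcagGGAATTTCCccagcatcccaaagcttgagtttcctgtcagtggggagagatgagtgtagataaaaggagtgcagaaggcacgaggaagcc
CXCL6: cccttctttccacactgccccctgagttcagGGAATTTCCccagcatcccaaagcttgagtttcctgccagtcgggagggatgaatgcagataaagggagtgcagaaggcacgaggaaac

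These windows are chr4:73869273-73869392 on the plus strand for CXCL1, chr4:74099196-74099315 on the minus strand for CXCL2 and chr4:74038690-74038809 on the minus strand for CXCL3. For CXCL5 the window is chr4:73998678-73998797 on the minus strand, and for CXCL6 it is chr4:73836558-73836677 on the plus strand. The word began 78 bases before the start site in CXCL1 and CXCL3, 77 in CXCL2, 90 in CXCL5 and 89 in CXCL6. GGAATTTCC or its reverse complement GGAAATTCC stood in the 250 bases upstream of 5 of the 5 genes, of 15 of the 271 measured genes with a promoter entry (5.54%) and of 137 of all 27305 genes with one (0.502%). The members were not chosen for this word. The word, however, is shown because all 5 hold it, so 5 of 5 follows from that choice and tests nothing. The 5 members are also counted among the measured genes and among all genes. A match is a description of the sequence, not a binding site. Over those 250 bases the GRO promoters were 70.4% identical between CXCL1 and CXCL2, 73.3% between CXCL2 and CXCL3 and 81.4% between CXCL1 and CXCL3. CXCL5 and CXCL6 were 85.3% identical, and each of them was 48.9% to 51.5% identical with any GRO promoter.

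Levels are given as the log2 intensity of a probe minus the median of its array over the 355 transcripts, so that 0 is the array median and 1 unit is a factor of 2. This scale shows a transcript relative to the others on its array, so a factor shared alike by all of them, such as the amount of recovered RNA, is subtracted. In RNA from a precipitate, more of a message in the cells and more of it brought down cannot be told apart. Array medians ranged from 2303 to 23848 intensity units, and the number of arrays limits the precision. Differences were tested with limma over all 355 transcripts, with Benjamini-Hochberg adjustment and a threshold of 0.05. Arrays of the same set deviated together from their group means (median r = 0.643 over 84 pairs from different groups), so results with the set as a replicate block are given beside those without it. Between sets the median r was -0.473. Deviations within a group sum to 0, so this value follows in part from the one within sets and is no separate evidence. Of the 7 epithelial markers sought none was measured, so the labelled cell type could not be checked. Of 15 leukocyte markers 5 were measured, and their summed level was 2.97 to 6.32 array medians, except on the IgG1 arrays of TNF/IFN cells at 18 h. There it was 12.1, 9.84 and 3.74 in sets 1, 3 and 4, at array medians of 3021, 2303 and 12399 intensity units. The median of the 5 markers on these arrays was -0.16, -0.47 and -0.54. CD3G alone averaged above the array median, and its highest level on any array was 3.11, against at most 0.30 for the others.

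CXCL1 and CXCL2 stood 8.03- to 8.99-fold higher after TNF/IFN in the HuR precipitates at 3 h and at 18 h, and they stood higher in the IgG1 precipitates at 3 h as well; at 18 h the IgG1 groups overlapped. CXCL1, known as GROα, was at 2.97, 4.17 and 5.27 in HuR IPs of TNF/IFN cells at 3 h (sets 1, 3 and 4), against 0.27, 1.09 and 1.95 in HuR IPs of untreated cells. As deposited, these were intensities of 187379, 96696 and 269258 in TNF/IFN cells, against 17269, 5970 and 51729 in untreated cells. All 3 stimulated arrays stood above all 3 untreated ones. CXCL2, known as GROβ, was at 3.97, 4.00 and 5.54 in HuR IPs of TNF/IFN cells at 3 h, against 1.86, 0.51 and 1.98 in HuR IPs of untreated cells. These groups did not overlap either, and within each set the stimulated array was higher by 2.11 to 3.57.

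**Figure D1:**
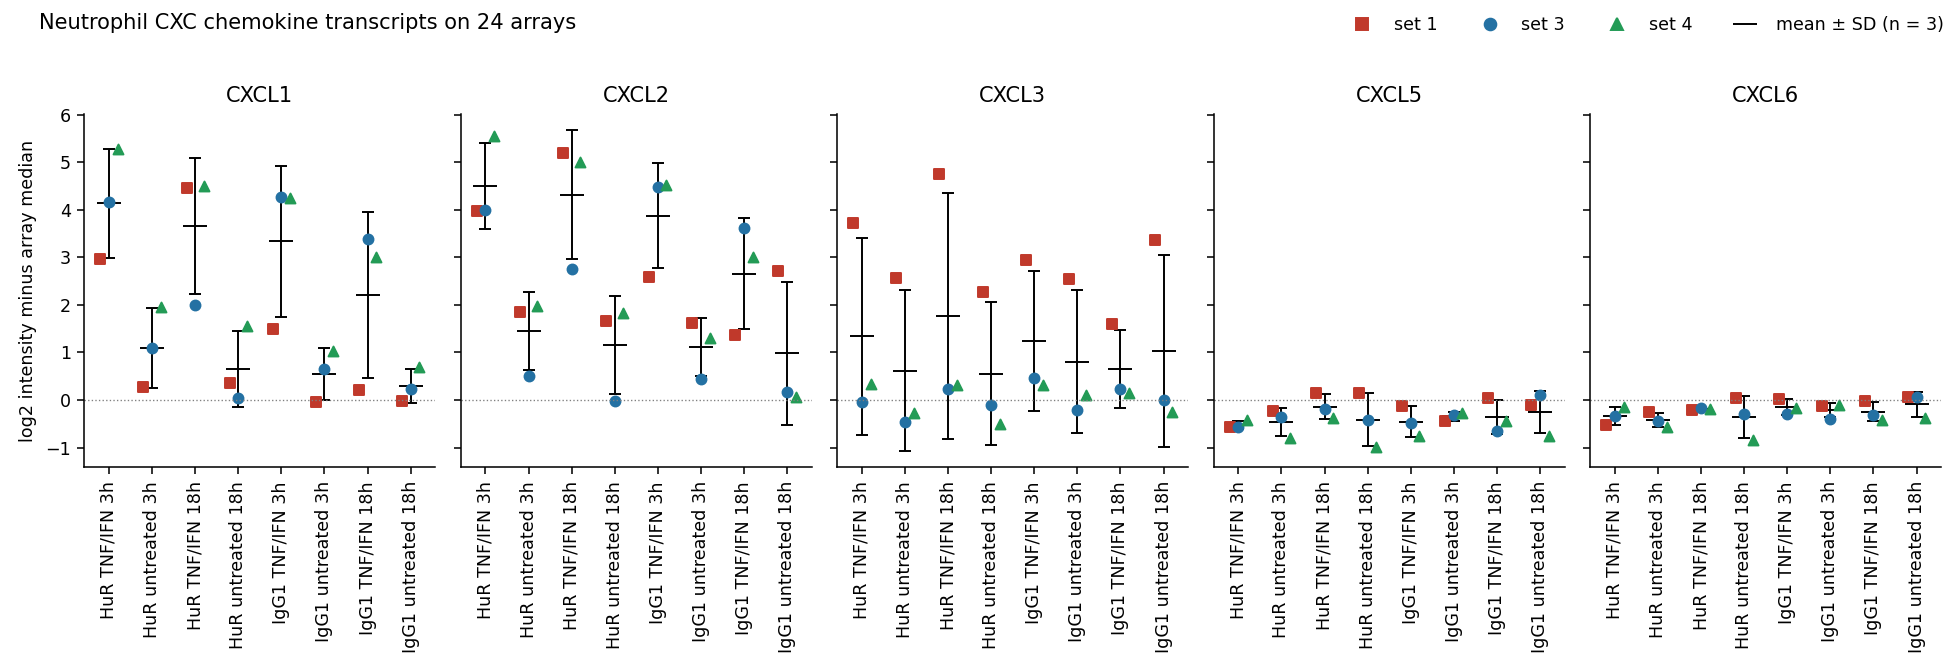
Level of each chemokine on each of the 24 arrays (log2 intensity minus the array median, vertical axis) by group, with TNF/IFN left of untreated; markers give the set, and horizontal lines and bars the mean ± SD of 3 arrays. CXCL1 and CXCL2 stand apart by treatment except in IgG1 precipitates at 18 h, CXCL3 stands apart by set, with set 1 at 1.60 to 4.75 and sets 3 and 4 at -0.51 to 0.46, and CXCL5 and CXCL6 stay near or below 0.

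The CXCL1 difference in the HuR precipitates at 3 h was 3.04 ± 0.89 (SE), an 8.21-fold higher intensity, with a limma adjusted p = 0.116 without the block and 0.0201 with the set as a block. For CXCL2 it was 3.06 ± 0.84, or 8.33-fold, with adjusted p = 0.106 without the block and 0.0456 with it. Here 0 of the 5 genes passed without the block, where 0.563% of all transcripts passed as higher, and 2 of 5 passed with it, where 2.25% did. CXCL1 and CXCL2 were also the members whose groups did not overlap, which held for 5.63% of all transcripts. Within sets 1, 3 and 4 the CXCL1 differences were 2.71, 3.08 and 3.32, closer to each other than the stimulated arrays themselves. Without set 1, in the unblocked fit, the difference was 3.20 for CXCL1 and 3.53 for CXCL2, with adjusted p = 0.0190 and 0.0206. Leaving out other sets or arrays gave adjusted p up to 0.992 and 0.985.

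At 18 h, CXCL1 was at 4.46, 2.00 and 4.51 in HuR IPs of TNF/IFN cells (sets 1, 3 and 4), against 0.36, 0.04 and 1.56 in HuR IPs of untreated cells. CXCL2 was at 5.19, 2.76 and 5.01 in HuR IPs of TNF/IFN cells, against 1.66, -0.03 and 1.83 in HuR IPs of untreated cells. Again neither gene's groups overlapped, as for 6.2% of all transcripts, and the set 3 array of stimulated cells was the low one for both genes. The CXCL1 difference was 3.01 ± 0.89 (8.03-fold; limma adjusted p = 0.125 without the block, 0.0159 with it). The CXCL2 difference was 3.17 ± 0.84 (8.99-fold; limma adjusted p = 0.0674 without the block, 0.0275 with it). Here 0 of 5 members passed without the block, against 1.13% of all transcripts, and 2 of 5 with it, against 3.66%. Without the HuR array of stimulated cells in set 3, both genes passed without the block as well, at 3.83 for CXCL1 (adjusted p = 0.0325) and 3.95 for CXCL2 (adjusted p = 0.0321). Without set 1 neither passed in that fit, at 2.46 and 2.99 (adjusted p = 0.0954 and 0.0709), and leaving out other sets or arrays gave adjusted p up to 0.999 for both.

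In the IgG1 precipitates at 3 h, CXCL1 was at 1.50, 4.26 and 4.25 in TNF/IFN cells (sets 1, 3 and 4), against -0.04, 0.66 and 1.03 in untreated cells. CXCL2 was at 2.60, 4.49 and 4.53 in TNF/IFN cells, against 1.62, 0.43 and 1.30 in untreated cells. The control antibody brought down RNA in which both chemokines stood higher after the stimulus, with no overlap between the groups, as for 5.63% of all transcripts. The difference was 2.79 ± 0.89 for CXCL1 (6.89-fold; limma adjusted p = 0.198 without the block, 0.0285 with it). It was 2.75 ± 0.84 for CXCL2 (6.74-fold; limma adjusted p = 0.179 without the block, 0.0785 with it). None of the 5 members passed without the block, against 1.13% of all transcripts, and 1 of 5, CXCL1, passed with it, against 2.54%. Set 1 was the low one: without it, in the unblocked fit, the differences were 3.41 for CXCL1 and 3.64 for CXCL2, with adjusted p = 0.0113 and 0.0148. Without only its array of stimulated cells, CXCL1 passed alone, at 3.70 (adjusted p = 0.0247), while leaving out other sets or arrays gave adjusted p up to 0.999 for both genes.

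At 18 h the IgG1 precipitates split by set. CXCL1 was at 0.20, 3.40 and 3.01 in TNF/IFN cells, against -0.02, 0.22 and 0.69 in untreated cells. CXCL2 was at 1.36, 3.61 and 3.00 in TNF/IFN cells, against 2.72, 0.17 and 0.07 in untreated cells. In sets 3 and 4 both genes were 2.32 to 3.45 higher after TNF/IFN, whereas in set 1 CXCL1 differed by 0.22 and CXCL2 by -1.36, and the groups overlapped. The difference over the 3 sets was 1.90 ± 0.89 for CXCL1 (3.74-fold; limma adjusted p = 0.730 without the block, 0.159 with it). It was 1.67 ± 0.84 for CXCL2 (3.19-fold; limma adjusted p = 0.899 without the block, 0.418 with it). No member passed in either fit, against 1.41% of all transcripts without the block and 5.07% with it, and no member's groups stood apart, against 5.35%. Without set 1 the differences were 2.75 and 3.19, with adjusted p = 0.0318 and 0.0280, whereas without set 3 they were 1.27 and 0.79, with adjusted p = 0.995 for both. On the set 1 array of stimulated cells the array median was 3021 intensity units and on that of set 3 it was 2303, against 12399 in set 4 and 5655 to 15945 in untreated cells; the part of this brightness in the result was not tested.

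**Figure D2:**
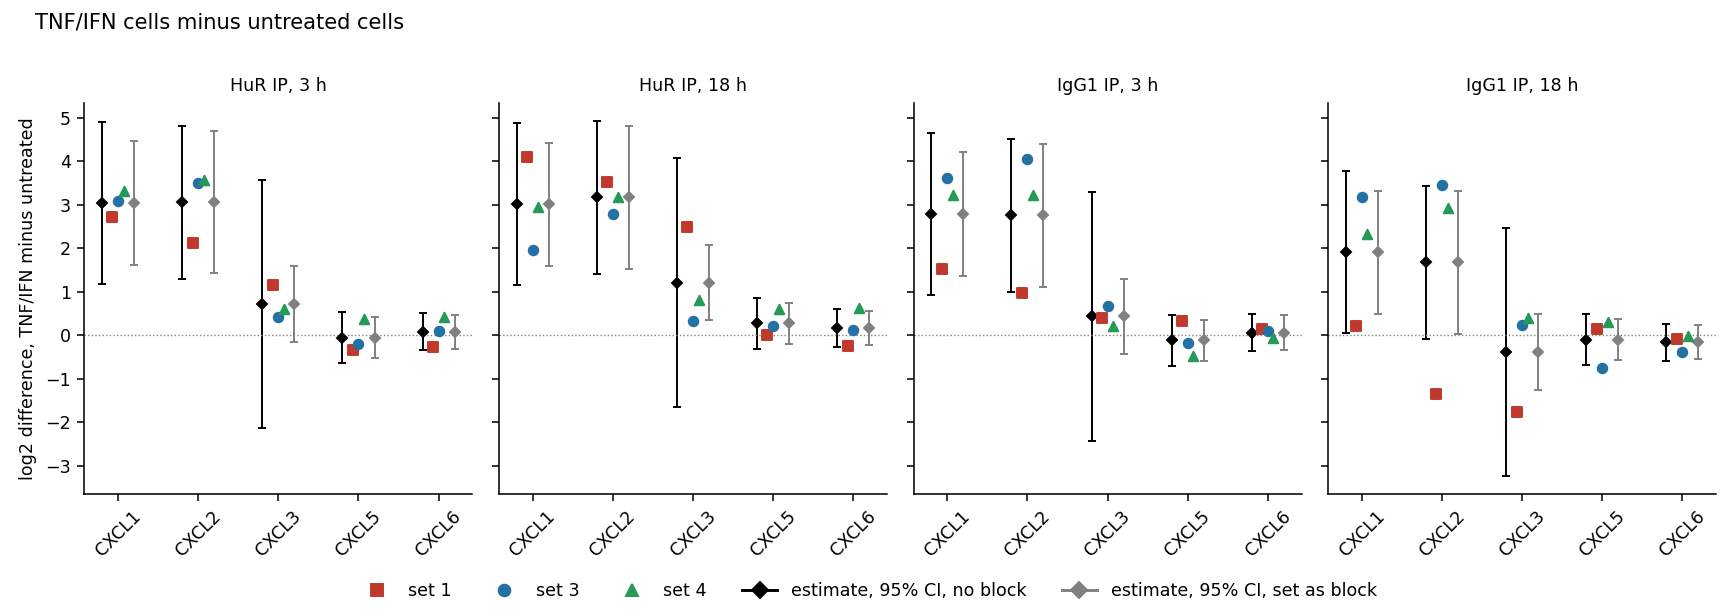
Difference between TNF/IFN and untreated cells (log2, vertical axis) for each chemokine in HuR and IgG1 precipitates at 3 h and 18 h; coloured markers are single sets, diamonds the limma estimates with 95% confidence intervals, black without and grey with the set as a block. The estimates for CXCL1 and CXCL2 lie at 2.75 to 3.17 in all panels but IgG1 at 18 h (1.90 and 1.67); in the IgG1 panels set 1 lies lowest, at 1.53 and 0.97 at 3 h and at 0.22 and -1.36 at 18 h.

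The stimulated difference did not change detectably with time. In the HuR precipitates the 18 h difference minus the 3 h difference was -0.03 for CXCL1 (95% confidence interval -2.66 to 2.60) and 0.11 for CXCL2 (-2.38 to 2.60). In the IgG1 precipitates it was -0.88 for CXCL1 (-3.51 to 1.75) and -1.08 for CXCL2 (-3.57 to 1.41). The intervals are wide, and they do not show that the differences at 3 h and 18 h were alike. By limma 0% of the 355 transcripts passed in either test of time, and 3 transcripts in each (4 and 7 with the block), none of them a member, had an unadjusted p under 0.05.

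The level of CXCL1 was ordered HuR TNF/IFN 3 h (4.14 ± 1.15, SD, n = 3), HuR TNF/IFN 18 h (3.66 ± 1.43), IgG1 TNF/IFN 3 h (3.34 ± 1.59) and IgG1 TNF/IFN 18 h (2.20 ± 1.74). Below them came HuR untreated 3 h (1.10 ± 0.84), HuR untreated 18 h (0.65 ± 0.80), IgG1 untreated 3 h (0.55 ± 0.54) and IgG1 untreated 18 h (0.30 ± 0.36). CXCL2 followed the same order, at 4.51 ± 0.90 in HuR IPs of TNF/IFN cells at 3 h and 0.99 ± 1.50 in IgG1 IPs of untreated cells at 18 h. The arrays of every 2 neighbouring groups in this order overlapped for both genes.

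CXCL1 and CXCL2 also moved together from array to array. With each set's mean removed, their levels correlated at r = 0.964 over 24 arrays, and within sets 1, 3 and 4 at r = 0.939, 0.980 and 0.990 over 8 arrays each. CXCL3 correlated with CXCL2 at r = 0.662 over the 24 arrays and at 0.963, 0.735 and 0.773 within the sets. The arrays share treatment groups and a scaling, so these values describe the arrays. The probe sequences were not analysed here, and whether each GRO probe separates its target from the other GRO messages was not tested.

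**Figure D3:**
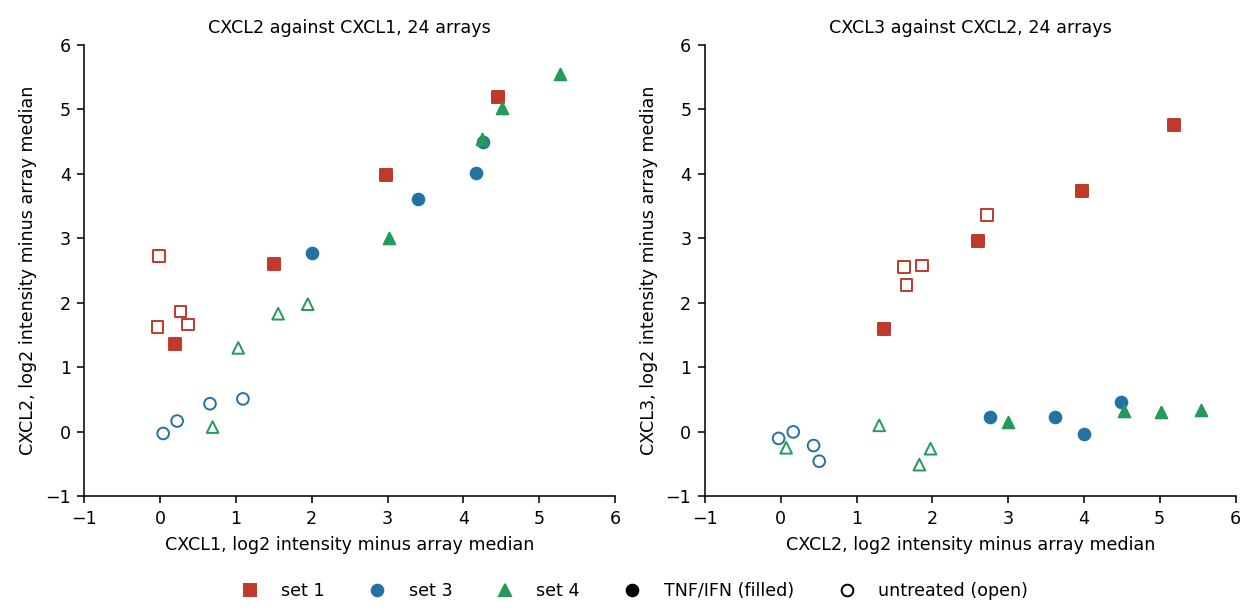
Levels of pairs of chemokines on the 24 arrays (log2 intensity minus the array median on both axes), CXCL2 against CXCL1 on the left and CXCL3 against CXCL2 on the right; colours and shapes give the set, filled markers TNF/IFN and open ones untreated cells. CXCL2 climbs with CXCL1 in each set, while CXCL3 splits into set 1 at 1.60 to 4.75 and sets 3 and 4 near 0.

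CXCL3, known as GROγ, was high on every array of set 1 and near the array median on the other arrays, whatever the treatment. In HuR IPs at 3 h it was at 3.73, -0.04 and 0.33 in TNF/IFN cells (sets 1, 3 and 4), against 2.58, -0.46 and -0.26 in untreated cells. In HuR IPs at 18 h it was at 4.75, 0.23 and 0.31 in TNF/IFN cells, against 2.27, -0.10 and -0.51 in untreated cells. Each set was higher after TNF/IFN, by 1.15, 0.41 and 0.60 at 3 h and by 2.48, 0.33 and 0.82 at 18 h, but the groups overlapped because set 1 was high throughout. All 3 sets were also higher for 12.1% of the 355 transcripts at 3 h and for 15.5% at 18 h. The difference was 0.72 ± 1.36 at 3 h and 1.21 ± 1.36 at 18 h, with limma adjusted p = 0.995 and 0.996, and with the block the adjusted p was 0.751 and 0.167.

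In IgG1 IPs at 3 h CXCL3 was at 2.95, 0.46 and 0.32 in TNF/IFN cells, against 2.55, -0.21 and 0.10 in untreated cells. In IgG1 IPs at 18 h it was at 1.60, 0.22 and 0.14 in TNF/IFN cells, against 3.36, -0.0036 and -0.25 in untreated cells. The differences were 0.43 ± 1.36 and -0.38 ± 1.36, neither past the threshold with or without the block, and set 1 at 18 h went the opposite way (-1.76) to sets 3 and 4 (0.23 and 0.39). Averaged over the 8 groups CXCL3 was at 2.97 in set 1, 0.01 in set 3 and 0.02 in set 4. Set 1 exceeded the mean of the other sets in 8 of 8 groups, by 1.41 to 4.49. Of the 355 transcripts 27 (7.61%) differed this way by more than 1 on average, and 40 (11.3%) were above 0 in all 8 groups. CXCL1 went the other way, with set 1 lower by 1.17 on average and above the other sets in 1 of 8 groups, and CXCL2 differed by 0.17.

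CXCL5 and CXCL6, which attract neutrophils as the GRO proteins do, stayed near or below the array median in all 8 groups. Group means were -0.52 to -0.14 for CXCL5 and -0.42 to -0.09 for CXCL6, and the lowest transcript of an array was at -1.36 to -0.49, so the dimmest signals left little room to fall. In HuR IPs at 3 h CXCL5 was at -0.57, -0.56 and -0.42 in TNF/IFN cells, against -0.24, -0.36 and -0.80 in untreated cells. In the same precipitates CXCL6 was at -0.53, -0.34 and -0.14 in TNF/IFN cells, against -0.26, -0.44 and -0.56 in untreated cells. The groups overlapped for both genes in each of the 4 stimulus comparisons. Over all 13 comparisons the widest difference was 0.38 for CXCL5 and 0.33 for CXCL6, and the lowest limma adjusted p was 0.979 without the block for both genes, and 0.776 and 0.670 with it. Without set 1 the widest differences were 0.64 and 0.58, and neither passed. CXCL5 and CXCL6 correlated with each other at r = 0.714 over the 24 arrays with set means removed, and with CXCL1 and CXCL2 at -0.08 to 0.04. Those last values cover opposite signs within sets: CXCL1 with CXCL5 was at 0.07, -0.67 and 0.33 in sets 1, 3 and 4, and CXCL1 with CXCL6 at -0.54, -0.26 and 0.48, over 8 arrays each. CXCL5 and CXCL6 both gave dim signals, and what their r of 0.714 reflects was not tested.

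The median difference over the 5 members was 0.72 in HuR IPs at 3 h, 1.21 in HuR IPs at 18 h, 0.43 in IgG1 IPs at 3 h and -0.10 in IgG1 IPs at 18 h. Over all 355 transcripts it was -0.09, 0.03, -0.09 and 0.01 in the same comparisons. The member at the median was CXCL3, which split by set, in all of these but IgG1 IPs at 18 h, where it was CXCL5. CXCL1 and CXCL2 lay well above the median and CXCL5 and CXCL6 near 0, so it describes no shift shared by the 5 genes.

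Whether the chemokine messages were more abundant with anti-HuR than with IgG1 was compared in each of the 4 conditions. In TNF/IFN cells at 3 h the HuR minus IgG1 difference was 0.80 for CXCL1, 0.63 for CXCL2 and 0.10 for CXCL3. In untreated cells at 3 h it was 0.55, 0.33 and -0.19 for the same genes. In TNF/IFN cells at 18 h the difference was 1.45 ± 0.89 for CXCL1, 1.66 ± 0.84 for CXCL2 and 1.11 ± 1.36 for CXCL3, and in untreated cells at 18 h it was 0.35, 0.17 and -0.48. None of these passed, and 0% of the 355 transcripts did in any of the 4 conditions by limma. At an unadjusted p under 0.05 there were 0, 1, 11 and 0 transcripts in these 4 comparisons, none of them a member. With the block there were 1, 2, 32 and 4, and the 32 in TNF/IFN cells at 18 h included CXCL1, CXCL2 and CXCL3, while still no transcript passed after adjustment.

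In TNF/IFN cells at 18 h set 1 gave the highest values. There CXCL1 was 4.26 higher in the HuR than in the IgG1 precipitate, against -1.39 in set 3 and 1.49 in set 4. For CXCL2 the set differences were 3.82, -0.85 and 2.01, and for CXCL3 they were 3.16, 0.0023 and 0.16. Without set 1 the differences were 0.05 for CXCL1, 0.58 for CXCL2 and 0.08 for CXCL3, and without set 3 they were 2.88, 2.92 and 1.66; none passed. Arrays of the same set did not all deviate together in this comparison (lowest r = 0.03), so the unblocked fit is the one reported, and with the block the adjusted p was 0.551, 0.551 and 0.525. The IgG1 arrays of sets 1 and 3 in this comparison are the dim ones given above.

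**Figure D4:**
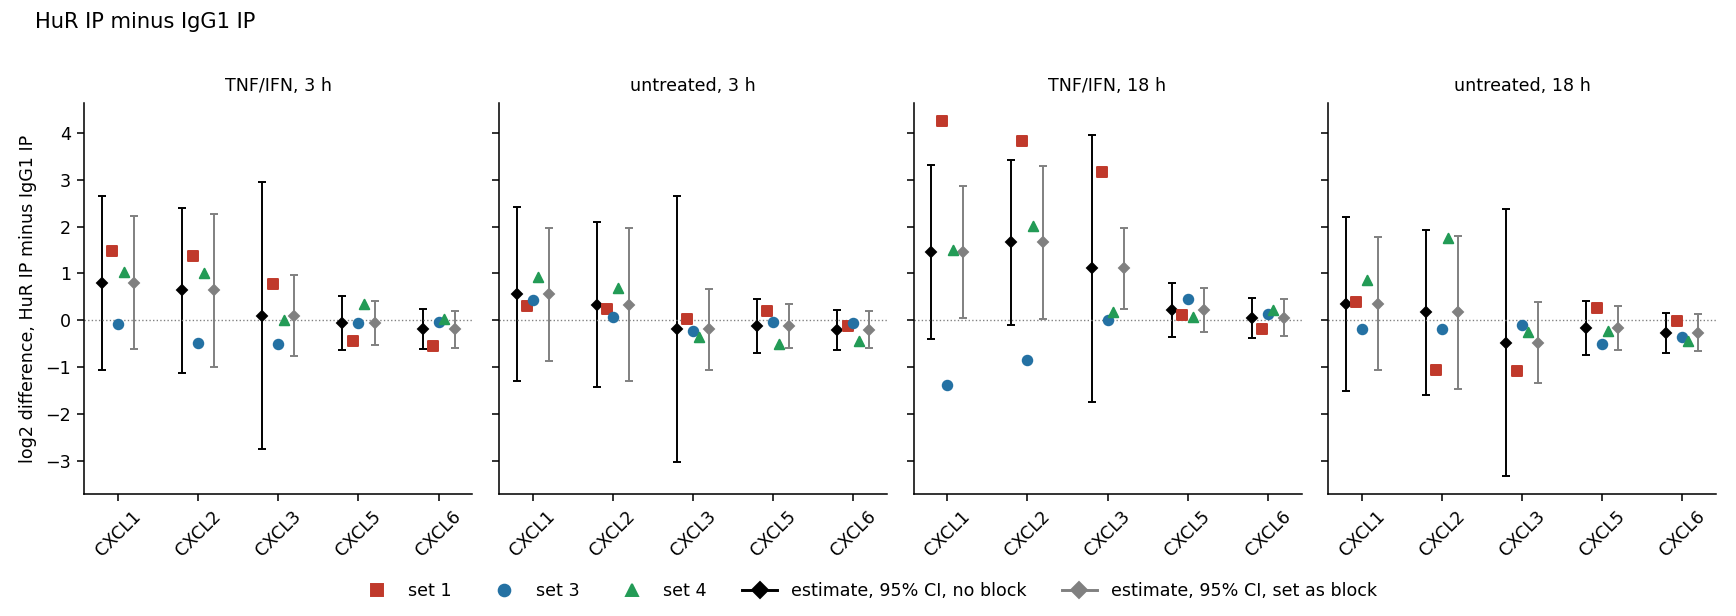
Difference between HuR and IgG1 precipitates (log2, vertical axis) for each chemokine in TNF/IFN and untreated cells at 3 h and 18 h; coloured markers are single sets, diamonds the limma estimates with 95% confidence intervals, black without and grey with the set as a block. In TNF/IFN cells at 18 h set 1 lies at 4.26, 3.82 and 3.16 for CXCL1, CXCL2 and CXCL3, above sets 3 and 4.

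Averaged over the 4 conditions, HuR precipitates exceeded IgG1 precipitates by 0.79 for CXCL1 (95% confidence interval -0.14 to 1.72) and by 0.70 for CXCL2 (-0.18 to 1.58). For CXCL3 the value was 0.13 (-1.29 to 1.56), for CXCL5 -0.03 and for CXCL6 -0.16. The limma adjusted p was 0.992 for the 5 genes, 0% of the 355 transcripts passed, and 12 transcripts, none of them a member, had an unadjusted p under 0.05. With the block 33 did, among them 1 member, CXCL1, whose interval was then 0.08 to 1.50 and whose limma adjusted p was 0.494. By set the CXCL1 value was 1.60, -0.31 and 1.07, and the CXCL2 value was 1.09, -0.36 and 1.37, so set 3 had the opposite sign for both genes.

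The change of the HuR to IgG1 ratio with the stimulus was tested as an interaction. At 3 h it was 0.25 for CXCL1, 0.30 for CXCL2 and 0.29 for CXCL3, and at 18 h it was 1.10, 1.49 and 1.59. The 95% confidence intervals at 18 h were -1.53 to 3.73, -0.99 to 3.98 and -2.44 to 5.62. No transcript passed at either time (0% of 355 by limma), and without the block none had an unadjusted p under 0.05. With the block none did at 3 h and 16 did at 18 h, among them 1 member, CXCL3 (95% confidence interval 0.36 to 2.82, limma adjusted p = 0.893). By set the CXCL3 change at 18 h was 4.24, 0.10 and 0.43 in sets 1, 3 and 4. The 18 h test includes the comparison in which same-set arrays did not all deviate together, so its blocked interval carries little weight.

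Among the related neutrophil chemokines and receptors, 3 of 6 listed genes were measured: CXCL8 and the receptors CXCR1 and CXCR2. CXCL8, the neighbour of the cluster that encodes interleukin-8, rose by 3.93 ± 0.88 in HuR IPs at 3 h (limma adjusted p = 0.0486) and by 4.00 ± 0.88 in IgG1 IPs at 3 h (0.0267). At 18 h its difference was 1.33 in HuR IPs and 0.96 in IgG1 IPs, neither past the threshold, and CXCR1 and CXCR2 passed in no comparison. Of the other CXC, CX3C and XC chemokines 7 of 10 were measured. CXCL10, which draws T cells, rose by 4.68 in IgG1 IPs at 18 h (adjusted p = 0.0259) and was 4.26 higher in HuR IPs at 18 h (0.0516 without the block, 0.0086 with it). It was the only one of the 7 to pass without the block, and CXCL11, which draws the same cells, passed with it in IgG1 IPs at 18 h (3.45; 0.0302). Over all transcripts 1.41% passed as higher in IgG1 IPs at 18 h without the block and 5.07% with it. The list's medians were 0.22 and 0.08 in HuR IPs at 3 h and 18 h, against -0.09 and 0.03 over all transcripts, and -0.10 and -0.01 in IgG1 IPs, against -0.09 and 0.01.

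Of the NF-κB route that induces these chemokines, 25 of 26 listed genes were measured, and TNFAIP3, which encodes the NF-κB feedback inhibitor A20, was the only one to pass without the block, at 1.82 ± 0.44 in IgG1 IPs at 3 h (limma adjusted p = 0.0484). With the set as a block, NFKBIA, which encodes the inhibitor IκBα, was higher by 2.08 in HuR IPs at 18 h (adjusted p = 0.0412), by 2.29 in IgG1 IPs at 3 h (0.0285) and by 2.78 in IgG1 IPs at 18 h (0.0047). In HuR IPs at 3 h it was 2.03 higher (0.0585), and IL1A, which encodes the cytokine interleukin-1α, was the 1 gene of the list to pass there (1.36; 0.0456). The NF-κB subunit genes RELA (2.11; 0.0158) and NFKB2 (1.04; 0.0302) passed with the block in IgG1 IPs at 18 h. No gene of the list passed as lower, and neither did any of the 355 transcripts in either fit. Without the block 1 of the 25 passed in IgG1 IPs at 3 h, against 1.13% of all transcripts. With it 1 and 1 of the 25 passed in HuR IPs at 3 h and 18 h, against 2.25% and 3.66%. In IgG1 IPs at 3 h and 18 h 2 and 3 passed with the block, against 2.54% and 5.07%. The list's median was -0.03 in HuR IPs at 3 h, 0.18 in HuR IPs at 18 h, 0.29 in IgG1 IPs at 3 h and 0.46 in IgG1 IPs at 18 h. Over all transcripts it was -0.09, 0.03, -0.09 and 0.01 in the same order.

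The transcripts whose pattern over the 24 arrays was most like the mean of CXCL1, CXCL2 and CXCL3, with set means removed, were CCL8 (r = 0.949), CCL2 (0.945), IL6 (0.897), CCL13 (0.882) and ICAM1 (0.853). Of these CCL2, CCL8 and CCL13 encode CC chemokines that draw monocytes, IL6 a cytokine and ICAM1 an adhesion molecule for leukocytes. Without set 1 the values were 0.964, 0.969, 0.928, 0.922 and 0.900 in the same order. For CXCL5 the most alike were FCGR3A (0.882), BCL2 (0.844) and CCL11 (0.826), and for CXCL6 they were CXCR4 (0.796), CCL16 (0.767) and CCL15 (0.762). These likenesses rest on 24 arrays that share groups and scaling, and they carry no test.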

How the data were processed

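RNA from HuR and IgG1 precipitates of BEAS-2B cells was measured on 24 radiolabelled membrane arrays, 3 in each of 8 groups taken from the sample titles. The deposited table gave 1 linear intensity per transcript and array; how the authors treated background is not stated in the labels. In a second deposited table each array's intensity values were rescaled by 1 factor of their own (0.542 to 3.64, within 2.90 intensity units), on a basis the labels do not state; it served as an alternative only. Of 384 listed transcripts 355 had values in all arrays, and 342 of these were matched by accession to a current RefSeq symbol. Values were converted to log2 and each array's median over the 355 transcripts was subtracted.

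The tool was limma 3.58.1 (R 4.3.3), with lmFit and eBayes run on the 24 arrays together and a coefficient for each group. The p-values were adjusted over the 355 transcripts by Benjamini-Hochberg at a threshold of 0.05. There were 13 comparisons: TNF/IFN against untreated, HuR against IgG1, and the differences between these. Deviations of same-set arrays from their group means correlated at 0.03 to 0.881 over 84 pairs, and each of the 24 arrays correlated best with its own set. In every comparison of groups but HuR against IgG1 in TNF/IFN cells at 18 h each same-set correlation was over 0.1, so the set numbers were taken to pair the arrays and the fit with the set as a replicate block is given beside the unblocked fit. The pairing comes from this check and the shared set numbers in the labels. The script was tested on simulated data.

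The members, gene lists and markers were chosen with earlier results of these data known. The text names the 5 members in every comparison, list genes that passed, and the transcripts closest in pattern by Pearson r. Promoter sequences were read from RefSeq by symbol, and all 5 members matched. Other settings tried were quantile normalization, no normalization, division by the array SD, the second table, a filter on dim probes, a random set block, fits on only the groups compared, and leaving out each set and each array. Message ends and proteins were not analysed here.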

Additional observations from a re-analysis of the deposited data

Results flagged for a closer look

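CXCL3 differed by 1.59 on the log2 scale between the HuR minus IgG1 difference of TNF/IFN cells and that of untreated cells at 18 h. It was marked because all 3 sets lay above 0 in TNF/IFN cells and all 3 lay below 0 in untreated cells. The values in sets 1, 3 and 4 were 3.16, 0.0023 and 0.16 in TNF/IFN cells and -1.08, -0.10 and -0.26 in untreated cells. Set 3 was barely above 0 in TNF/IFN cells, so its sign carries little weight. For 8.73% of the 355 transcripts all 3 sets lay above 0 in TNF/IFN cells at 18 h. The share of transcripts meeting both conditions was not determined. The test of the difference itself, the limma interaction, gave an adjusted p = 0.994 without the set as a block and 0.893 with it. By set the difference was 4.24, 0.10 and 0.43, so set 1 gave most of it.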

How the results depend on the processing

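With the set as a replicate block, 2 members passed in HuR IPs at 3 h, 2 in HuR IPs at 18 h and 1 in IgG1 IPs at 3 h, against 0 without it, and it changed no other member's call; a random replicate block gave the same counts. The settings that follow were fitted without the block unless it is named, so their counts compare with the 0 of the unblocked fit. Quantile normalization passed 1 (CXCL1, HuR 3 h), division by the array SD 1 (CXCL1, HuR 18 h), and the filter on dim probes 1 (CXCL2, HuR 18 h). In fits on only the groups compared, without the block, none of CXCL1, CXCL2 and CXCL3 passed in any comparison. The second table as deposited passed 2, 2 and 1 (HuR 3 h, HuR 18 h, IgG1 3 h) and 2 for HuR against IgG1 in TNF/IFN cells at 18 h. In that table the median transcript also shifted, by 1.61 in the last comparison, -1.47 in IgG1 IPs at 18 h and 0.54 in HuR IPs at 18 h. Once its arrays were median-centred, no member passed. Centring removes the factor of each array, so this fit repeats the main one and is no separate check. Leaving out 1 set or array gave 0 to 2 members in each of the 4 stimulus comparisons. Leaving out set 1 with the block, chosen after seeing the data, gave 2 in each of the 4.

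Some differences that passed nowhere changed sign. The 18 h minus 3 h difference in HuR IPs was -0.14 for CXCL2 and -0.40 for CXCL3 with quantile normalization, 0.17 for CXCL1 without normalization, 0.12 for CXCL1 and -0.24 for CXCL3 after division by the array SD, and 0.38 for CXCL1 in the second table. HuR minus IgG1 in untreated cells at 18 h was 0.13 for CXCL3 with quantile normalization, and for CXCL2 -0.11 without normalization and -0.18 in the second table. In TNF/IFN cells at 3 h it was -0.00034 for CXCL3 after division by the array SD. The cause was not tested.

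Leaving out 1 set or array gave these ranges where the sign changed. For CXCL1, HuR minus IgG1 was -0.12 to 1.38 in TNF/IFN cells at 3 h and -0.10 to 0.66 in untreated cells at 18 h, its change with TNF/IFN was -0.67 to 0.83 at 3 h and -0.29 to 2.25 at 18 h, and the 18 h minus 3 h difference was -0.74 to 0.79 in HuR IPs and -1.80 to 0.12 in IgG1 IPs. For CXCL2, HuR minus IgG1 was -0.0032 to 1.19 in TNF/IFN cells at 3 h, -0.013 to 0.80 in untreated cells at 3 h and -0.63 to 1.04 in untreated cells at 18 h, its change was -0.33 to 0.74 at 3 h and -0.20 to 2.57 at 18 h, and the 18 h minus 3 h difference in HuR IPs was -0.54 to 0.89. For CXCL3, TNF/IFN minus untreated was -0.47 to 1.70 (HuR 3 h), -0.29 to 2.07 (HuR 18 h), -0.42 to 1.30 (IgG1 3 h) and -1.02 to 0.78 (IgG1 18 h), and the 18 h minus 3 h difference was -1.01 to 1.68 in HuR IPs and -1.68 to 0.35 in IgG1 IPs. HuR minus IgG1 for CXCL3 was -1.10 to 0.95 and -1.17 to 0.68 in TNF/IFN and untreated cells at 3 h, -0.39 to 1.88 and -1.34 to 0.68 at 18 h, -0.24 to 0.42 on average, and its change at 3 h was -0.91 to 1.27. With 3 arrays a group, and signals near the dimmest transcripts for CXCL5 and CXCL6, small differences were not detectable.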
